A study of Homo sapiens with 12 samples.

Results

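HBE1, HBG2, HBG1 and HBD are the epsilon, gamma and delta globin genes of the human beta-globin cluster, and they were taken by symbol from a table of counts for 28278 genes. All 4 were found, each held at least 50 counts in every library, and all 4 were among the 15805 genes that passed the filter on low counts. Each beta-like globin chain pairs with an alpha-like chain and binds heme to make hemoglobin. Epsilon chains serve the embryo, gamma chains the fetus, and delta chains a minor adult hemoglobin. The genes stand along the chromosome in the order of their use in development, downstream of a shared distal enhancer, the locus control region. K562, a human erythroleukemia line, is known for making embryonic and fetal rather than adult hemoglobins, and for making more of them when it is given inducers such as butyrate, a histone deacetylase inhibitor.

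RNA sequencing covered 4 groups of 3 libraries: unedited K562 cells (WT) and HRG1-KO K562 cells (KO), each with no treatment or with sodium butyrate at 0.75 mM. HRG1, encoded by SLC48A1, is a transporter that moves heme out of the endolysosome into the cytosol. Treated cells received the first dose 24 h after plating and the second 48 h after the first, RNA came from cells taken 6 h after that, and the series places the samples at day 8 of differentiation. How many KO clones were used, how the gene was disrupted and whether replicates were separate cultures are not given in the sources used here, so p-values measure only the spread between these libraries, which may be technical.

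Library totals ranged from 19963594 to 30348538 counts, and the 4 globin genes took between 0.154% and 4.51% of them. SLC48A1, the targeted gene, held 1357 to 1945 counts in the WT libraries and 55 to 313 in the KO libraries, so all 12 went with their labels. All 7 erythroid markers, GATA1, TFRC, KLF1, TAL1, EPOR, SLC4A1 and ANK1, were at a mean of 1 CPM or more in every group. CPM here is the count of a gene scaled to library size, with TMM factors between libraries. Rows for ribosomal RNA took 0.724% to 6.42% of counts, and in each group replicate 1 had the highest share. Replicate 1 of treated WT, the library with 6.42%, lay at 40.9 on the second principal component, inside the 15.3 to 75.6 of the untreated libraries. The other treated libraries lay between -84.8 and 4.21. Markers of other lineages also moved. The summed level of 8 megakaryocyte markers in WT was 33.5 to 60.9 CPM untreated and 118 to 227 treated, and in KO 15.6 to 55.4 and 81.6 to 119, with GP1BB and PF4 at 0 in every group. The sum of 5 fibroblast markers, mostly COL1A1, was 2.35 to 5.21 CPM in untreated and 43.9 to 157 in treated libraries. The sum of 6 lymphocyte markers, nearly all PTPRC in WT, was 25.6 to 101 CPM in WT and 4.65 to 11.4 in KO, with MS4A1 at 0 in every group. The sum of 8 granulocyte and monocyte markers in WT was 40.9 to 64.8 CPM untreated and 70.8 to 99.96 treated, and in KO 44.6 to 161 and 156 to 242, with MPO at 0 in both KO groups. The part of these in the globin results was not tested.

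All 4 genes lie on the minus strand of chromosome 11. In RefSeq coordinates on GRCh38, HBE1 spans chr11:5268345-5269945, HBG2 chr11:5253188-5254781, HBG1 chr11:5248269-5249857 and HBD chr11:5232838-5234483. In the direction of transcription HBE1 comes first, HBG2 follows after 13563 bp, HBG1 after a further 3330 bp and HBD after a further 13785 bp. The spliced transcripts inside these spans are 623, 584, 587 and 620 bases long, in the same order. The 2 gamma genes are near-identical copies: 54.2% of the 100-base windows of HBG2 occur letter for letter in HBG1, so a read of that length often cannot be assigned to either, and HBG1 and HBG2 are also given as a sum. No 100-base window of HBE1 or HBD is shared with the other 3 genes. HBD is a close copy of another beta-like gene that was not analysed here, and the strand setting and the annotation behind the counts are not given in the sources used here, so its low counts are uncertain.

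Of the 4 promoters, the RefSeq promoter table (GRCh38.p14) held that of HBD, the member that was not called lower in KO. It is shown because the delta promoter is the textbook example of a weak promoter of this cluster, known for lacking the CACCC box that KLF1 binds in other beta-like promoters and for carrying CCAAC where they carry CCAAT. The 250 bases before the HBD start, chr11:5234484-5234733 on the minus strand, are printed 5′ to 3′ with every match of the searched motifs in capitals.
HBD promoter: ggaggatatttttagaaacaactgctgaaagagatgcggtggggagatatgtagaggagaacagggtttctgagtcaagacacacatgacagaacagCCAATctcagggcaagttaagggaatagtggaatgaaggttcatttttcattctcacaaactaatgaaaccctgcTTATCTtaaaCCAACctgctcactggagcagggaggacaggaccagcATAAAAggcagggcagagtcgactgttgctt
The letters CCAAT begin 153 bases before the start, and 32% of 35116 promoters of the same length held it. The variant CCAAC begins 68 bases before the start and occurred in 33% of promoters. TTATCT, which is the GATA-type motif AGATAA on the opposite strand, begins 78 bases before the start, and 9.17% of promoters held it. ATAAAA, the TATA-like motif, begins 31 bases before the start and occurred in 14.8%. The search covered both strands and no match overlapped another. CACCC, in 54.7% of promoters, had no match in the HBD window. The second GATA-type motif searched, TGATAA, in 6.66% of promoters, had none either. These matches describe letters and not binding.

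HBE1, the embryonic gene, had the widest range of the 4. Untreated WT held 5646, 2272 and 5119 CPM in replicates 1, 2 and 3, and treated WT 23153, 13903 and 10299 CPM. Untreated KO held 26.3, 17.9 and 7.35 CPM, and treated KO 419, 221 and 92.0 CPM. No 2 groups overlapped, and the order from high to low was treated WT, untreated WT, treated KO and untreated KO. In treated WT, HBE1 was among the 3 most abundant genes of every library, whereas in untreated KO it ranked between 6711.5 and 10093.5. In all 4 groups replicate 1 had the highest HBE1 level and also the highest share of ribosomal RNA, and the part of the latter was not tested.

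HBG2 and HBG1, the fetal pair, moved together and less than HBE1. HBG2 in WT held 6652, 3051 and 6355 CPM untreated and 19475, 12238 and 9238 treated, and in KO 1846, 1024 and 1298 untreated and 2241, 1447 and 1976 treated. HBG1 in WT held 3639, 1613 and 3694 CPM untreated and 11038, 7143 and 5722 treated, and in KO 869.9, 477 and 609 untreated and 1092, 688 and 932 treated. Their sum was 8335 ± 3181 CPM (SD, n = 3), 21618 ± 8014, 2041 ± 618 and 2792 ± 608 in that order of groups. Every WT library was above every KO library, treated and untreated WT did not overlap, and treated and untreated KO did.

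HBD, the minor adult gene, was the scarcest member, with 50 to 459 counts a library. It held 4.55, 2.32 and 5.44 CPM in untreated WT and 20.4, 17.2 and 14.6 in treated WT. The KO libraries held 9.31, 2.52 and 6.02 CPM untreated and 6.15, 7.36 and 7.92 treated. Every treated WT library stood above all others, untreated KO overlapped with both treated KO and untreated WT, and these last 2 did not overlap. For HBE1, HBG1, HBG2 and HBD, the exact permutation test gave p = 0.1 for each neighbouring pair of groups without overlap, the smallest p that 3 libraries against 3 allow.

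**Figure D1:**
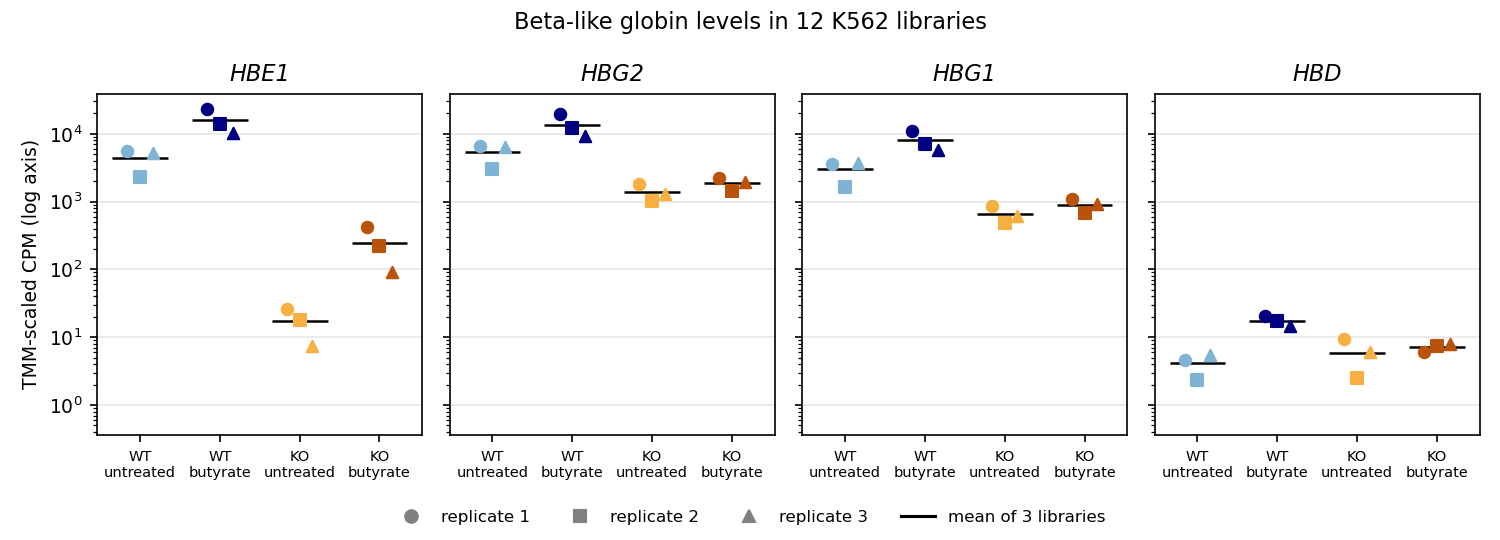
TMM-scaled CPM (log axis) of HBE1, HBG2, HBG1 and HBD in each of the 12 libraries, by group; symbols mark the replicate number and lines the mean of 3 libraries. HBE1 fell from 4346 CPM in untreated WT to 17.2 in untreated KO, while HBD stayed between 2.32 and 20.4 CPM in all libraries.

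Compared per kilobase of spliced transcript, HBG2 was the highest of the 4 in untreated WT, at 9165 ± 3423 CPM per kilobase (SD, n = 3), followed by HBE1 at 6975 ± 2914 and HBG1 at 5080 ± 2020. Their ranges overlapped, but the order was the same in all 3 libraries. In treated WT, HBE1 stood at 25337 ± 10643 CPM per kilobase and HBG2 at 23374 ± 9011, with HBE1 above HBG2 in each library. The order of HBE1 and the gamma genes in WT depends on how reads that fit both gamma genes were counted. That is not given in the sources used here. In KO cells the order was HBG2, HBG1, HBE1 and HBD in both treatments, with HBE1 at 27.5 ± 15.2 and HBD at 9.59 ± 5.47 CPM per kilobase without butyrate. Per length, the gamma pair exceeded HBD 1956 to 2398 times in untreated WT and 309 to 631 times in untreated KO.

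The comparison of KO with WT asked how globin transcripts differ between HRG1-KO and unedited cells. Loss of the heme transporter and other differences between the edited and unedited cells cannot be told apart here. In untreated cells HBE1, HBG1 and HBG2 fell in KO and HBD did not pass the test. HBE1 was 254-fold lower (log2 fold change -7.99, SE 0.77, edgeR quasi-likelihood test with Benjamini-Hochberg adjusted p = 1.65e-05), HBG1 4.57-fold lower (-2.19, SE 0.38, adjusted p = 0.00121) and HBG2 3.85-fold lower (-1.95, SE 0.38, adjusted p = 0.00261). The gamma sum was 4.08-fold lower (-2.03, SE 0.38, adjusted p = 0.00213). HBD had a log2 difference of 0.53 (SE 0.44, adjusted p = 0.435), and its groups overlapped. So 3 of the 4 genes were called, all lower, where 22.6% of all genes were called and 10.9% were called lower, and 3 of 4 did not overlap downward where 20.2% of all genes did. Of the granulocyte and monocyte markers, ITGAM (log2 fold change 5.23, adjusted p = 0.000769 in edgeR) and CSF3R (4.25, adjusted p = 0.000924) were higher in the same KO libraries. LYZ (-1.49, adjusted p = 0.0133 in edgeR) and SPI1 (-1.44, adjusted p = 0.0215), from the same marker list, were lower there. The part of these markers in the globin difference was not tested. HBE1 had the 170th most negative log2 fold change of the 15805 genes. In these bulk samples, fewer cells that make a globin and less globin RNA per cell cannot be told apart.

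Under butyrate the same 3 genes were lower in KO. HBE1 was 64.7-fold lower (log2 fold change -6.02, SE 0.70, edgeR adjusted p = 9.88e-05), HBG1 8.82-fold lower (-3.14, SE 0.39, adjusted p = 0.000159) and HBG2 7.23-fold lower (-2.85, SE 0.39, adjusted p = 0.000314). ITGAM and CSF3R were again higher in KO (3.59, adjusted p = 0.00568, and 3.94, adjusted p = 0.00163). LYZ (0.23, adjusted p = 0.725 in edgeR) and SPI1 (-0.28, adjusted p = 0.685) were not called under butyrate. HBD, the delta gene, was at 6.15 to 7.92 CPM in treated KO and 14.6 to 20.4 in treated WT. Its log2 difference of -1.28 (SE 0.44) had an adjusted p of 0.06 in edgeR, and 0.0256 with the replicate number as a block, a fit that called 29.2% of all genes. It was also under the threshold without replicate 1 or 2 of untreated KO, which this contrast does not compare (adjusted p = 0.0454 and 0.0273). Of all genes, 19% were called and 8.89% were called lower, and 16% did not overlap downward, against 4 of the 4 globin genes. The total of the 4 genes was 6.14-fold lower in KO without butyrate (-2.62, SE 0.40, adjusted p = 0.000544) and 12.3-fold lower with it (-3.62, SE 0.42, adjusted p = 9.76e-05). The calls of HBE1, HBG1 and HBG2 held in both when any 1 compared library was left out, with the highest adjusted p at 0.0143, that of HBG2 without replicate 2 of untreated KO. Without replicate 1 of treated KO, HBE1 was 101-fold lower under butyrate (-6.65, edgeR adjusted p = 0.000164).

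The fold by replicate number gives these differences within each set of libraries that share a number. In untreated cells HBE1 was 215-fold, 127-fold and 696-fold lower in KO for numbers 1, 2 and 3, and in treated cells 55.3-fold, 62.8-fold and 112-fold lower. The gamma sum was 3.79-fold, 3.11-fold and 5.27-fold lower in untreated and 9.15-fold, 9.08-fold and 5.15-fold lower in treated cells. Within every number and treatment, HBE1 was lower by a larger fold than the gamma sum.

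**Figure D2:**
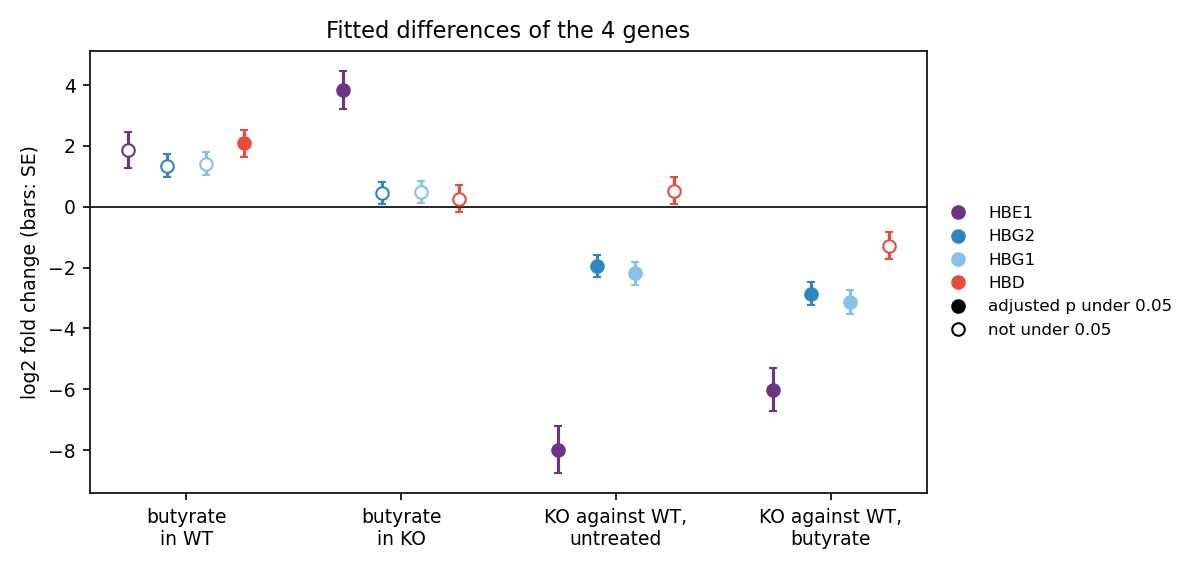
Log2 fold change of HBE1, HBG2, HBG1 and HBD in the 4 contrasts between 2 groups; bars show the SE, and filled symbols mark genes past the adjusted threshold of 0.05. HBE1 has the most negative values in KO against WT (-7.99 and -6.02) and the most positive in the butyrate contrast of KO (3.83).

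Butyrate was used to drive erythroid differentiation, and in WT all 4 genes were higher in every treated library than in any untreated one. HBD rose 4.23-fold (log2 fold change 2.08, SE 0.45, edgeR adjusted p = 0.0361), the sole call among the 4. HBE1 was 3.63-fold higher on average (1.86, SE 0.58, adjusted p = 0.117), HBG1 2.67-fold (1.42, SE 0.37, adjusted p = 0.0669) and HBG2 2.55-fold (1.35, SE 0.37, adjusted p = 0.0796). The sum of the gamma genes was 2.59-fold higher (adjusted p = 0.0772) and the total of the 4 genes 2.95-fold higher (adjusted p = 0.057). Of all genes 2.35% were called, 1.8% were called higher, and 11.3% did not overlap upward, against 4 of the 4 globins.

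With the replicate number as a block, all 4 genes passed in WT where 8.61% of all genes did. The block was fitted because libraries of the same number shared deviations, but the labels do not say what the number marks. The blocked adjusted p was 0.0203 for HBE1, 0.00452 for HBG1, 0.00612 for HBG2 and 0.00801 for HBD. It was 0.00568 for the gamma sum and 0.00341 for the 4-gene total. The fold differed between numbers: HBE1 was 4.10-fold, 6.12-fold and 2.01-fold higher in numbers 1, 2 and 3, the gamma sum 2.97-fold, 4.16-fold and 1.49-fold, and HBD 4.49-fold, 7.43-fold and 2.68-fold. Number 2 had the largest fold for each, and its untreated library was the lowest of the 3 for all 4 genes. Without the block, the HBD call was lost when any of 6 libraries was left out. Leaving out replicate 1, 2 or 3 of untreated WT gave an adjusted p of 0.12, 0.145 or 0.0656, leaving out replicate 2 or 3 of treated WT gave 0.116 or 0.0726, and leaving out replicate 2 of treated KO gave 0.0577.

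In KO cells butyrate raised HBE1 and no other member passed the test. HBE1 rose 14.3-fold (log2 fold change 3.83, SE 0.63, edgeR adjusted p = 0.00995), by 15.9-fold, 12.4-fold and 12.5-fold within numbers 1, 2 and 3. Treated KO nevertheless held 244 ± 165 CPM of HBE1 (SD, n = 3), 17.8-fold less than untreated WT. HBG1 differed by 0.47 (SE 0.36, adjusted p = 0.51), HBG2 by 0.44 (SE 0.36, adjusted p = 0.544) and HBD by 0.27 (SE 0.44, adjusted p = 0.788), each with overlapping groups. With the block, which called 11.7% of all genes, their adjusted p was 0.189, 0.216 and 0.533. Of all genes 3.4% were called and 2.8% were called higher, against 1 of the 4 globins, and 12.6% did not overlap upward, as HBE1 did not. Without replicate 2 of untreated KO the adjusted p of HBE1 was 0.0675 at a log2 fold change of 3.89, and the HBD difference turned to -0.09. Without replicate 1 of treated KO the rise of HBE1 was 9.14-fold (3.19, adjusted p = 0.0121).

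The interaction contrast, the response of KO less the response of WT, tested whether the genotypes responded differently to butyrate. None of the 4 genes passed, and none of all 15805 genes did (0%) in edgeR, although 658 (4.16%) had an unadjusted p under 0.05, 3 genes (0.019%) passed with the block and 83 passed in DESeq2. The estimate was 1.97 (SE 0.81, adjusted p = 1) for HBE1, with unadjusted p = 0.0301 from edgeR. It was -0.95 (SE 0.51) for HBG1, -0.91 (SE 0.51) for HBG2 and -1.81 (SE 0.62) for HBD, whose unadjusted p was 0.0124 and adjusted p 0.879 in edgeR. The larger fold of HBE1 in KO and the smaller folds of the others are therefore not shown to differ from those in WT after adjustment.

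The make-up of the cluster was read as each gene's share of the summed counts of HBE1, HBG1, HBG2 and HBD. The size of these shares, and of the ratios of HBE1 to gamma counts, depends on how reads that fit both gamma genes were counted. In WT, HBE1 took 35.4%, 32.7% and 33.7% of these counts in untreated replicates 1, 2 and 3 and 43.1%, 41.7% and 40.7% in treated ones. In KO it took 0.955%, 1.17% and 0.383% untreated and 11.1%, 9.37% and 3.06% treated. The groups did not overlap, and the share of HBE1 was higher with butyrate in both genotypes. No Wilson 95% confidence interval of an HBE1 share was wider than 0.476 percentage points, and intervals cover counting error only.

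**Figure D3:**
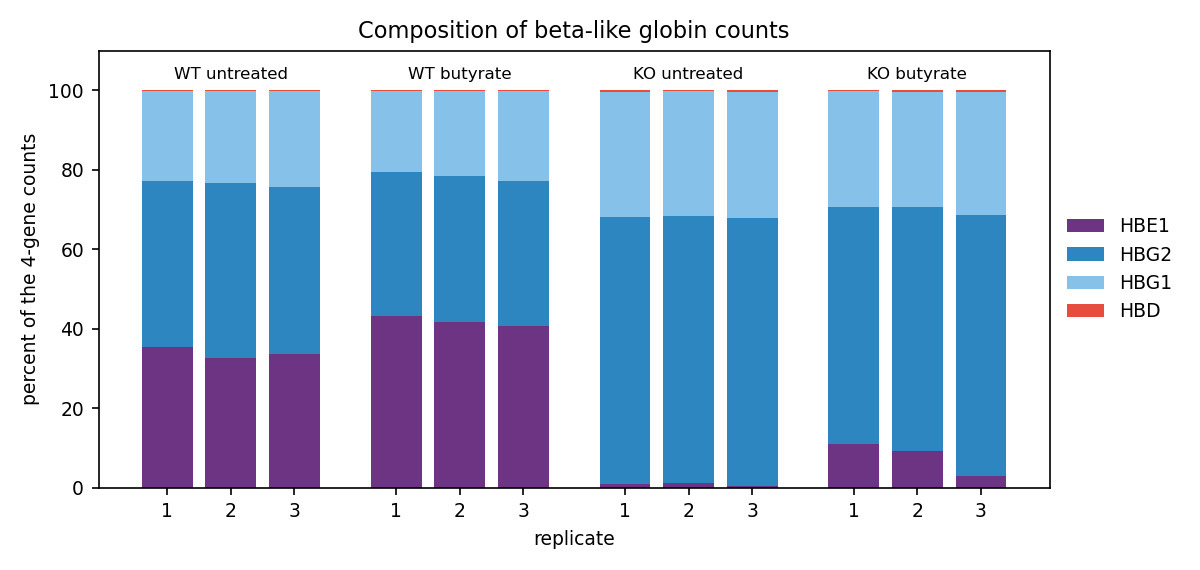
Share of HBE1, HBG2, HBG1 and HBD in the summed counts of the 4 genes, as stacked bars for each of the 12 libraries. HBE1 makes up 32.7% to 43.1% in WT libraries and 0.383% to 11.1% in KO libraries; HBD is too small to stand out.

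A two-sided exact permutation test stratified by genotype placed the effect of butyrate on the HBE1 share at 7.46 percentage points (p = 0.005, the smallest that 400 arrangements allow, adjusted p = 0.0233 over 28 share tests). Stratified by treatment, the difference of KO from WT was -33.6 points (exact permutation p = 0.005, adjusted p = 0.0233). The gamma share mirrored it, since HBE1 and the gamma pair together make nearly all counts. In WT it was 66.0% ± 1.35 (SD, n = 3) untreated and 58.1% ± 1.18 treated, and in KO 98.9% ± 0.359 untreated and 91.9% ± 4.22 treated. The effect of butyrate on the HBE1 share was 7.91 points in WT and 7.02 in KO, a difference of -0.888 points that did not pass an exact permutation test by replicate number (p = 0.9, n = 3, where 0.1 is the smallest possible).

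In WT, HBD took 0.0326% ± 0.00374 (SD, n = 3) of the 4-gene counts untreated and 0.0492% ± 0.0101 treated, and in KO 0.272% ± 0.0933 untreated and 0.246% ± 0.0754 treated. Its share was 0.218 points higher in KO (exact stratified permutation p = 0.005, adjusted p = 0.0233), with every KO library above every WT library. This is a share of a total that was lower in KO, and the level of HBD itself was not called higher there. For butyrate the HBD share gave -0.00479 points (exact stratified permutation p = 0.855).

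As a ratio, HBE1 had 0.487 to 0.549 counts per gamma count in untreated WT and 0.688 to 0.759 in treated WT. In untreated KO there was 1 HBE1 count for every 84.0 to 259 gamma counts, and in treated KO 1 for every 7.96 to 31.6. Replicate 3 had the lowest ratio in both KO groups.

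**Figure D4:**
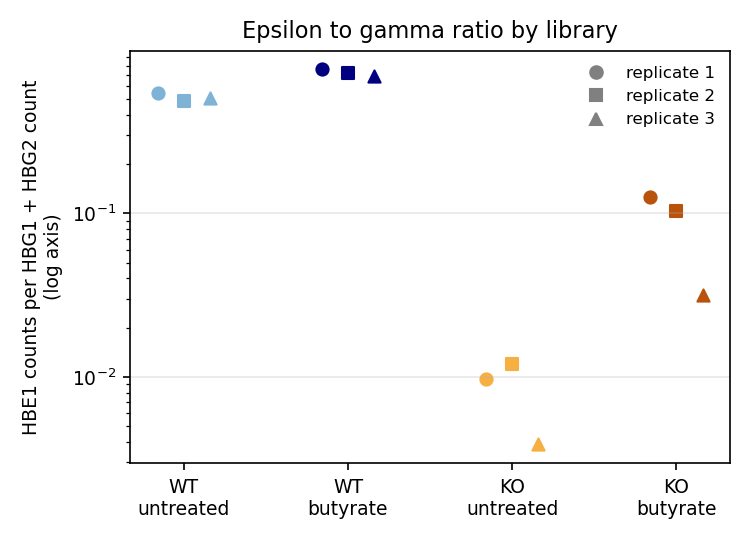
HBE1 counts per count of HBG1 + HBG2 in each library (log axis), by group, with symbols for the replicate number. WT libraries lie between 0.487 and 0.759 and KO libraries between 0.00386 and 0.126.

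Within the gamma pair, HBG1 made up 35.4%, 34.6% and 36.8% of the gamma counts in untreated WT and 36.2%, 36.9% and 38.2% in treated WT. It made up 32.0%, 31.8% and 31.9% in untreated KO and 32.8%, 32.2% and 32.1% in treated KO. The HBG1 share was lower in every KO library than in any WT library, a difference of -4.20 points (exact stratified permutation p = 0.005, adjusted p = 0.0233). The difference with butyrate was 0.974 points (exact stratified permutation p = 0.055, adjusted p = 0.127). Per length, HBG2 exceeded HBG1 1.62 to 1.90 times in WT and 2.06 to 2.16 times in KO. Because the copies share most of their sequence, this ratio depends on how the authors assigned reads that fit both.

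The 2 non-coding rows between HBG1 and HBD are BGLT3, a long non-coding RNA gene, and HBBP1, a pseudogene. HBBP1 was lower in KO without butyrate (log2 fold change -2.56, SE 0.45, edgeR adjusted p = 0.00145) and with it (-3.06, SE 0.44, adjusted p = 0.000471), as was BGLT3 (-2.81, SE 0.71, adjusted p = 0.0129, and -2.85, SE 0.69, adjusted p = 0.012). HBBP1 in WT held 4.49, 3.85 and 11.8 CPM untreated and 38.6, 27.4 and 38.5 treated, and in KO 1.23, 0.666 and 1.50 untreated and 3.81, 4.03 and 4.64 treated. Butyrate raised it in WT (2.37, SE 0.43, adjusted p = 0.0178) and in KO (1.86, SE 0.45, adjusted p = 0.0406). BGLT3 had butyrate differences of 1.94 (SE 0.66, adjusted p = 0.148, blocked 0.0115) in WT and 1.90 (SE 0.69, adjusted p = 0.152, blocked 0.0224) in KO. Of the untreated WT libraries, replicate 3 stood apart for BGLT3 at 19.1 CPM against 3.19 and 3.62. Of these calls, that of BGLT3 was lost in untreated cells without replicate 3 of WT (-1.48, adjusted p = 0.0814) or replicate 2 of KO (adjusted p = 0.0576), and in treated cells without replicate 2 of KO (adjusted p = 0.0507). The butyrate call of HBBP1 was lost in WT without untreated replicate 1 or 2 (adjusted p = 0.0894 and 0.081) or treated replicate 2 or 3 (0.0531 and 0.0571). In KO it was lost without untreated replicate 1, 2 or 3 (0.119, 0.182 and 0.0678) or treated replicate 2 or 3 (0.131 and 0.101). Without replicate 3 of untreated WT, HBBP1 rose by 3.07 with butyrate in WT and had a log2 difference of -1.88 in untreated KO, both still called (adjusted p = 0.0102 and 0.00434). In the fit of the 2 compared groups alone its butyrate calls were lost (0.0755 in WT and 0.0708 in KO). In KO they were also lost without replicate 2 or 3 of treated WT (0.0597 and 0.0609), libraries that the contrast does not compare. In the GENCODE annotation (release 29) 1 HBD model reaches across HBBP1, so reads there could belong to either row.

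**Figure D5:**
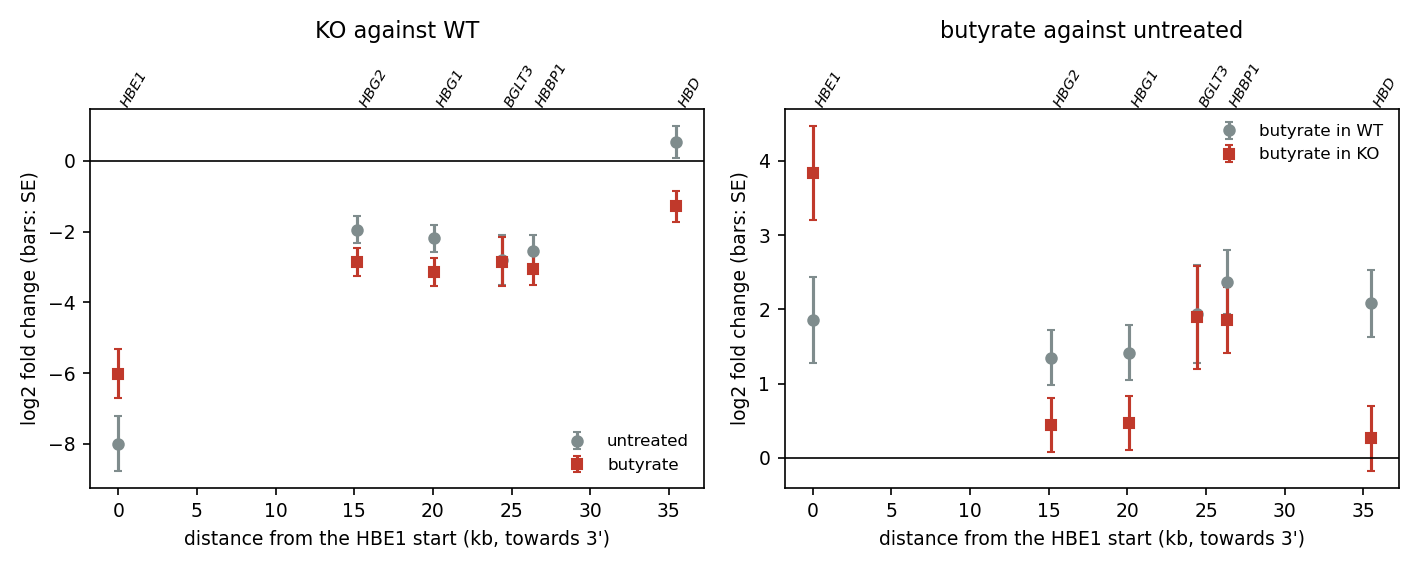
Log2 fold change (bars: SE) of the 4 globin genes, BGLT3 and HBBP1 against the distance of their start from that of HBE1, in kilobases, for KO against WT (left) and butyrate against untreated (right). In KO against WT the values are -7.99 and -6.02 at HBE1, and 0.53 and -1.28 at HBD, 35.5 kb away.

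By position, the KO difference was most negative at HBE1, lay between -3.14 and -1.95 for the gamma genes, BGLT3 and HBBP1, and was 0.53 and -1.28 at HBD, the last of the 6. Among the rows between HBE1 and HBD, the KO difference did not rise steadily with distance. The butyrate difference in WT lay between 1.35 and 2.37 for all 6. In KO it was 3.83 at HBE1, 0.44 and 0.47 at the gamma genes, 1.86 and 1.90 at HBBP1 and BGLT3, and 0.27 at HBD.

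Alpha-like chains are the partners of all beta-like chains. The list held the alpha-like genes HBA1, HBA2, HBZ, HBM and HBQ1, and AHSP, a chaperone of alpha chains. Of these 6, all but HBM were tested, which left 5. HBA1 and HBA2, the near-identical alpha genes, rose with butyrate in WT (log2 fold change 2.61, SE 0.56, edgeR adjusted p = 0.0327, and 2.73, SE 0.57, adjusted p = 0.0321). None of the 5 was called for butyrate in KO, although HBA2 passed with the replicate block (1.30, blocked adjusted p = 0.0488). Of all genes 1.8% were called higher in WT and 2.8% in KO. The median over the 5 was 2.61 in WT and 0.68 in KO, beside 0.02 and 0 over all genes. HBA1 and HBA2 were lower in KO without butyrate (-1.92, SE 0.54, adjusted p = 0.0225, and -2.15, SE 0.56, adjusted p = 0.0155) and with it (-3.48, SE 0.58, adjusted p = 0.00123, and -3.71, SE 0.60, adjusted p = 0.00104). Of all genes 10.9% were called lower in untreated KO and 8.89% in treated KO. HBZ, the embryonic alpha-like gene, was at 200.97 to 483 CPM in untreated WT, and in treated WT at 7549, 1256 and 341 CPM, a wide spread in which replicate 1 stood apart. In KO it was at 223 to 716 CPM untreated and 498 to 1108 treated, and it passed in none of the 4 contrasts without the block. With the block it rose in WT (2.61, adjusted p = 0.0136). HBA1 held 7666 CPM in replicate 1 of treated WT and 2975 and 1380 in the others. Without that library the butyrate differences in WT were 1.72 for HBA1 and 1.80 for HBA2, and those between treated genotypes -2.61 and -2.81, all still called (edgeR adjusted p = 0.0315, 0.0298, 0.00133 and 0.00101). The butyrate calls of HBA1 and HBA2 were lost without replicate 1, 2 or 3 of untreated WT or replicate 2 of treated WT (adjusted p from 0.0757 to 0.142 for HBA1 and from 0.0727 to 0.138 for HBA2). They were lost too without replicate 2 of untreated KO (0.0531 and 0.0517) or of treated KO (0.0525 and 0.0509), and in the fit of the 2 compared groups (0.122 and 0.119). Their calls between untreated groups were lost without replicate 1 of WT or replicate 2 or 3 of KO (from 0.0698 to 0.0889 and from 0.0544 to 0.0632).

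The 9 listed globin activators were transcription factors and cofactors, and EPOR, a receptor gene. Among them GATA1 and KLF1, which bind globin promoters, passed in no contrast without the replicate block. GATA1 was at 302 ± 43.1 CPM (SD, n = 3) in untreated WT and 177 ± 2.20 in untreated KO (adjusted p = 0.088 in edgeR, 0.0199 blocked), and KLF1 at 164 ± 51.4 and 78.3 ± 24.8 (adjusted p = 0.228, blocked 0.0448), where the blocked fit called 33% of all genes. LDB1, which bridges the enhancer to the promoters, fell in untreated KO (log2 fold change -0.89, SE 0.18, edgeR adjusted p = 0.00404) and in treated KO (-0.69, SE 0.18, adjusted p = 0.0199). NFE2, an erythroid factor that binds the locus control region, fell in untreated KO (-1.14, SE 0.29, adjusted p = 0.0125). The list thus had 2 of 9 lower in untreated KO, where 10.9% of all genes were, with a median of -0.49 beside 0.02 over all genes. In treated KO it had 1 of 9 lower, where 8.89% of all genes were, with a median of -0.54 beside -0.0022. The blocked fit called 33% of all genes between untreated and 29.2% between treated genotypes, in either direction. With it 4 of 9 were lower and 1 higher in untreated KO, and 3 lower and 1 higher in treated KO. The higher one was LMO2, a bridging partner of LDB1 (1.36, blocked adjusted p = 0.0236, and 1.18, 0.0491). In treated KO the block added GATA1 (-0.71, blocked adjusted p = 0.0274) and GATA2 (-0.61, 0.042). With butyrate 1 of 9 rose in each genotype, where 1.8% of all genes did in WT and 2.8% in KO, and it was ZFPM1, a GATA1 cofactor (1.38, SE 0.31, adjusted p = 0.0393 in WT, and 1.49, SE 0.31, adjusted p = 0.0262 in KO). The NFE2 call was lost without replicate 1 of untreated WT (adjusted p = 0.0543). That of LDB1 under butyrate was lost without replicate 1 of treated WT (0.0543) or replicate 2 or 3 of treated KO (0.0513 and 0.0535), and in the fit of the 2 compared groups (0.0742). The ZFPM1 calls were lost without any untreated library of their genotype or replicate 2 of the treated ones (0.0912 to 0.165 in WT and 0.0789 to 0.12 in KO). The WT call was also lost without any 1 library of untreated KO (0.0527 to 0.0601) and in the fit of the 2 compared groups (0.0889).

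Of 21 repressors of fetal or embryonic globin, 20 were tested, and none passed the test for butyrate in either genotype. BCL11A, the best known repressor of gamma globin, held 0 to 8 counts a library and was not tested. SOX6, which acts with BCL11A and represses epsilon globin, stood in WT at 5.83 ± 0.104 CPM (SD, n = 3) untreated and 5.11 ± 0.989 treated. In KO it was at 0.298 ± 0.406 CPM untreated and 0.161 ± 0.0865 treated (log2 fold change -4.28, SE 0.86, edgeR adjusted p = 0.00328, and -4.92, SE 0.89, adjusted p = 0.00215). Without replicate 2 of untreated KO the untreated difference of SOX6 was -6.18 (adjusted p = 0.000678). In the KO libraries SOX6 had 0 to 16 counts, and epsilon globin was lower there too. HDAC1, a histone deacetylase, was called higher in KO in both treatments (0.62, SE 0.19, adjusted p = 0.0352, and 0.64, SE 0.19, adjusted p = 0.037). NFIX was called lower in untreated KO (-1.03, SE 0.32, adjusted p = 0.0364), and ZBTB7A, a repressor of gamma globin also called LRF, in treated KO (-0.89, SE 0.25, adjusted p = 0.0277). In each treatment 1 of 20 was thus called higher and 2 lower in KO, where 11.7% and 10.9% of all genes were called without butyrate and 10.1% and 8.89% with it. With the block IKZF1, a zinc finger factor best known from lymphocytes, was also lower in both treatments (blocked adjusted p = 0.0125 and 0.0231), and NR2F2, also called COUP-TFII, in treated KO (0.0041). The list median was -0.11 beside 0.02 over all genes in untreated and -0.06 beside -0.0022 in treated cells, and the latter was 0.05 when libraries were scaled by their totals alone. The calls of HDAC1, NFIX and ZBTB7A were each lost without most single libraries. HDAC1 passed in 2 of 6 such fits in untreated and 1 of 6 in treated cells (highest adjusted p = 0.156 without replicate 1 of untreated KO, and 0.124 when replicate 2 of treated WT was omitted). NFIX passed in 1 of 6 (highest 0.134 without replicate 1 of untreated KO) and ZBTB7A in 2 of 6 (highest 0.0983 without replicate 3 of treated KO). In the fit of the 2 compared groups the treated calls of HDAC1 (0.0963) and ZBTB7A (0.072) were lost. Those of HDAC1 were lost with no filter (0.0542 and 0.0575), and that of ZBTB7A with library size alone (0.0568).

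Of 8 fetal-stage RNA-binding and growth genes, 7 were tested. LIN28A, an RNA-binding protein of early development that is known to raise gamma globin, held at most 2 counts in untreated WT. In untreated KO it was at 56.0 ± 21.5 CPM (SD, n = 3), at least 418-fold higher than a limit of 3 counts per WT library. With butyrate it was at 0.255 ± 0.256 CPM in WT and 89.6 ± 28.8 in KO. Its relative LIN28B was at 70.3 ± 15.8 CPM in WT and 188 ± 39.3 in KO without butyrate, and at 22.3 ± 14.9 and 80.6 ± 57.1 with it. Without the block it passed between treated groups alone (log2 fold change 1.85, SE 0.51, edgeR adjusted p = 0.0221), and was lost without replicate 2 or 3 of treated WT (0.0882 and 0.0825) or replicate 1 of treated KO (1.12, adjusted p = 0.103), and in the fit of the 2 compared groups (0.101). Without replicate 1 of treated WT it was 2.54 (adjusted p = 0.00328). With the block LIN28B was also higher in untreated KO (1.44, blocked adjusted p = 0.00218) and fell with butyrate in WT (-1.81, 0.004) and in KO (-1.44, 0.00922). IGF2BP3, an RNA-binding protein, fell in KO with the block too (-0.80, blocked adjusted p = 0.0447). The list had 1 of 7 higher in untreated KO and 2 of 7 in treated KO, where 11.7% and 10.1% of all genes were called higher, with medians of 0.56 and 0.47 beside 0.02 and -0.0022 over all genes, while the gamma genes were lower in the same libraries.

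Heme is bound by every globin chain, and HRG1 moves heme out of the endolysosome into the cytosol. Of 13 genes of heme supply and heme response, 12 were tested. Butyrate raised 4 in WT: ALAS2, the first enzyme of erythroid heme synthesis, ALAD, UROS and the mitochondrial iron importer SLC25A37. It raised 3 of them in KO, ALAD, UROS and SLC25A37. Of all genes 1.8% were called higher in WT and 2.8% in KO. With the block CPOX also rose (0.88, blocked adjusted p = 0.0286) and UROD fell (-1.04, 0.00866) in WT, and ALAS1 rose in KO (0.74, 0.0322). The list medians were 0.67 and 0.63, beside 0.02 and 0 over all genes. In WT, ALAS2 was at 24.0 ± 14.2 CPM (SD, n = 3) untreated and 193 ± 54.9 treated, and in KO at 181 ± 23.2 untreated and 289.95 ± 25.5 treated. It rose with butyrate in WT (log2 fold change 3.00, SE 0.36, edgeR adjusted p = 0.00386) and was higher in KO without butyrate (2.91, SE 0.36, adjusted p = 0.000116). So untreated KO, with the lowest HBE1 and gamma levels of the 4 groups, had an ALAS2 level in the range of treated WT. EIF2AK1, the heme-regulated kinase that restrains globin translation when heme is short, fell in KO without butyrate (-0.72, SE 0.16, adjusted p = 0.00623) and with it (-1.001, SE 0.16, adjusted p = 0.00103). BACH1, a heme-binding repressor of globin and heme genes, fell as well (-0.82, SE 0.18, adjusted p = 0.00642, and -0.84, SE 0.18, adjusted p = 0.0065). The list had 1 of 12 higher and 2 lower in untreated KO, and 4 of 12 lower in treated KO, FECH and SLC25A37 being the other 2. Of all genes, 10.9% were called lower and 11.7% higher in untreated KO, and 8.89% lower in treated KO. With the block PPOX was higher in both treatments (blocked adjusted p = 0.0224 and 0.0245), and UROS (0.0262) and SLC25A38 (0.0242) were lower in treated KO. The calls of ALAS2, ALAD in WT, EIF2AK1 and BACH1 held when any 1 compared library was left out, although without replicate 3 of untreated WT the ALAS2 rise was 3.601. The others passed in 1 to 3 of 6 such fits, with a highest adjusted p of 0.0714 for SLC25A37 and 0.0808 for UROS in WT. In KO the highest was 0.135 for ALAD, 0.152 for SLC25A37 and 0.156 for UROS, and between treated groups it was 0.14 for FECH and 0.0862 for SLC25A37. In the fit of the 2 compared groups the butyrate calls of UROS (0.0585 in WT and 0.0549 in KO) and SLC25A37 (0.0558 in WT) were lost, as were those of FECH (0.121) and SLC25A37 (0.0642) between treated genotypes.

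The genes whose levels most resembled those of each member over the 12 libraries were found from the root mean square difference of log2 CPM, each gene centred on its own mean, among 15797 genes. For HBE1 they were EPHB6, GATA5, CDC42EP3, ANXA1 and FAM49A, at 1.08 to 1.30, where HBE1 itself varied by 3.92 around its mean. EPHB6, a receptor of the ephrin family, had mean levels in WT of 28.8 CPM untreated and 165 treated, and in KO of 0.218 untreated and 0.541 treated. For the gamma sum, which varied by 1.39, they were LINC01881, SLC10A3, PTGS2, OR4F5 and KCNQ1OT1 at 0.44 to 0.52. For HBD, which varied by 0.93, they were ATP2B1-AS1, CNN1, ATAD3C, MYL5 and SPACA6P-AS at 0.46 to 0.52. These are descriptions with no test, and genes of few counts, such as OR4F5, are among them.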

How the data were processed

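RNA sequencing of 12 K562 libraries was analysed from 1 table of counts per gene symbol, as the authors deposited it; whole numbers with unequal sums identify the unit. Per the submitters' processing notes, the tools were FastQC 0.12.1 and STAR 2.7.11b with genome build hg38; the counting tool, annotation, strand setting and filters are not given in the sources used here. Groups and replicate numbers came from the sample titles, columns were matched by library name, and 0 columns were left unused.

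Counts were analysed in R 4.3.3 with edgeR 4.0.16: filterByExpr (minimum count 10) left 15805 of 28278 genes, libraries were scaled by TMM, group means were estimated from the 12 libraries together (biological coefficient of variation 0.384), and p-values of quasi-likelihood F-tests received the Benjamini-Hochberg correction across tested genes, with a threshold of 0.05. The SE of a log2 fold change was derived from the test, as its absolute value divided by the square root of the F statistic. Sums were fitted in tables where the sum replaced its rows. Scripts were tested on simulated data. Shares were compared by two-sided exact permutation tests (scipy 1.17.1) and carry Wilson 95% intervals. A limit of 3 counts equals 0.0953 to 0.162 CPM, depending on the library. No replicates held the same library (smallest chi-square per degree of freedom 40.0).

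Deviations from group means correlated over genes between libraries of the same number at 0.195 to 0.409 (butyrate in WT), 0.147 to 0.468 (butyrate in KO), 0.21 to 0.361 (genotype, untreated) and 0.315 to 0.595 (genotype, treated). For other numbers the highest values were 0.186, 0.123, 0.0692 and 0.343. Since every pair sharing a number exceeded 0.1, the fit with the replicate number as a block is printed where it changes a call of the 4 globin genes or of a gene on the lists. The labels do not say what the number marks.

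The 4 genes and the gene lists were chosen with earlier results of these data known. Some listed genes are not reported here, and the lists' counts and medians leave them out. Named genes are the 4 members, SLC48A1, members of the lists and the 5 genes closest in profile to each member. Alternatives covered scaling, filters, DESeq2 1.42.0, the block, fits of 2 groups, library totals without ribosomal RNA or globin rows, and left-out libraries.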

Additional observations from a re-analysis of the deposited data

Results flagged for a closer look

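HBD is the result to look at again. Its level in KO was above that of the WT library of the same number in 3 of 3 untreated pairs (log2 1.03, 0.12 and 0.14) and below it in 3 of 3 treated pairs (log2 -1.73, -1.23 and -0.88), a mean shift of -1.71. In edgeR the interaction had an unadjusted p of 0.0124 and an adjusted p of 0.879. The untreated groups overlapped, and 2 of the 3 untreated differences were small. The counts behind them were 50 to 180 per untreated library.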

How the results depend on the processing

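Across the alternatives, 724 of the values that answer a comparison stayed on their side of the threshold in the same direction, 14 no longer passed, 23 newly passed and 5 changed sign. Of the calls of listed genes, 125 no longer passed, 14 of them in the fit of 2 groups, 2 with no filter, 1 with library size alone and the others with libraries left out, and 43 counts of called genes or mean shares moved. Leaving out a library outside the contrast also ended the calls of UROS for butyrate in KO, of HDAC1 in both treatments and of FECH between treated genotypes (edgeR adjusted p from 0.0501 to 0.0602). The calls of HBE1, HBG1, HBG2, the gamma sum and the 4-gene total between genotypes held under every alternative. For butyrate in WT, HBG1 newly passed with library size alone (1.39) and with no filter (1.41), and the 4-gene total with these (1.53 and 1.55) and with a minimum of 10 counts in each library (1.61). With the replicate block HBE1 (1.73), HBG1 (1.46), HBG2 (1.38), the gamma sum (1.41) and the total (1.59) newly passed, as they did in DESeq2 (1.87, 1.43, 1.36, 1.39 and 1.57). HBD no longer passed in the fit of its 2 groups (2.09, adjusted p = 0.0665 in edgeR). Between treated genotypes HBD newly passed with the block (-1.26), in DESeq2 (-1.29) and in the fit of 2 groups (-1.30). The block changed no other call of the 4 genes or their sums, those for the interaction included. The cause of these changes was not tested.

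With libraries left out, the butyrate difference in WT ranged from 1.79 to 2.35 for HBD and from 1.19 to 1.78 for the total, that in KO from 3.19 (without replicate 1 of treated KO) to 4.27 for HBE1 and from -0.0895 to 0.81 for HBD, and the treated genotype difference from -1.42 to -1.08 for HBD and from -6.65 (without replicate 1 of treated KO) to -5.63 for HBE1. Without all libraries numbered 1 the total passed in WT (1.39, adjusted p = 0.0495 in edgeR). The share differences ranged from 6.64 to 8.66 points (HBE1, butyrate), -34.4 to -32.4 (HBE1, genotype), -8.66 to -6.66 (gamma sum, butyrate), 32.2 to 34.2 (gamma sum, genotype), -0.0315 to 0.0341 (HBD, butyrate), 0.202 to 0.245 (HBD, genotype), 0.686 to 1.27 (HBG1 in gamma, butyrate) and -4.62 to -3.90 (HBG1 in gamma, genotype). Without the libraries numbered 1 the smallest exact stratified permutation p is 0.0556, so no share could pass. The HBG1 share passed for butyrate without replicate 3 of untreated WT (exact permutation p = 0.015) or of treated KO (exact permutation p = 0.045).

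Counts of genes called moved more than those of the members. For butyrate in WT, 372 became 1361 with the block, 1295 in DESeq2, 63 in the fit of 2 groups and 43 to 1884 with libraries left out. In KO, 537 became 1852 with the block, 1492 in DESeq2, 304 with at least 10 counts in every library and 48 to 2164 with libraries left out. Between untreated genotypes 3574 became 2328 with at least 10 counts. Between treated genotypes 3009 became 1954 with at least 10 counts, 4611 with the block and 1802 in the fit of 2 groups. The interaction, with 0, had 2 with no filter, 1 with at least 10 counts, 3 with the block, 83 in DESeq2 and up to 9 with libraries left out. Library size alone set the median of all genes at 0.12 for butyrate in KO. Depth limits HBD, with 50 to 459 counts a library.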
